A study of Medicago truncatula with 6 samples.

Results

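Nitrate, ammonium, peptide and amino acid transporters carry nitrogen across root membranes, and their transcripts were examined in Medicago truncatula roots colonised by arbuscular mycorrhizal fungi. Members were taken by the annotation: every annotated gene whose description holds the words nitrate transporter, peptide transporter, NRT1, ammonium transporter, amino acid transporter or amino acid permease. The words matched 263 genes, of which 2 are not analysed here, leaving 261 members of 54762 loci in the table. The words also bring in a few genes that are not transporters or that carry other cargo, and these are named where they occur. RNA sequencing covered 3 libraries of wild-type R108 and 3 of the mutant Mtphr2, all from mycorrhizal roots of unstated age. Mtphr2 is named after PHR2, a MYB-type regulator of the phosphate starvation response; the labels do not say which allele or locus is mutated, so the genotype was not checked by its own transcript. In the labels the 3 libraries per genotype are termed technical replicates; the p-values therefore reflect only how these libraries vary. Values after ± are SDs (n = 3), and standard errors of fold changes are marked SE.

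In plants, nitrate enters roots through the NRT1/PTR family (NPF), whose members also move peptides and hormones, and through the high-affinity NRT2 proteins, which work with a small partner protein, NRT3. Ammonium enters through AMT proteins, and amino acids move through permeases (AAP), lysine histidine transporters (LHT), cationic amino acid transporters (CAT) and vacuolar AVT proteins. In arbuscular mycorrhiza, fungal nitrogen is released at arbuscules, the branched hyphae inside cortical cells, and some AMT and NPF genes are known to be active in these cells.

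Totals per library ran from 18199040 to 21477169 estimated counts, and 162 of the 261 members had enough counts to be tested. The other 99 members had at most 15 counts in any library, and 47 of them were listed at 0 in all 6. The members together took 6683, 5775 and 4340 CPM (counts scaled to a common library size of 1000000) in R108 replicates 1, 2 and 3, and 6010, 5544 and 5413 CPM in Mtphr2 replicates 1, 2 and 3. The 12 arbuscule markers, genes such as the phosphate transporter PT4 and the regulator RAM1 that are active in arbuscule-containing cells, differed strongly between libraries of one genotype. Their mean log2 CPM was 7.28, 6.13 and 4.80 in R108 replicates 1 to 3, and 4.99, 2.67 and 3.29 in Mtphr2 replicates 1 to 3. The mean level in Mtphr2 replicate 1 was thus above that in R108 replicate 3, so by this mean the genotypes overlapped. Taken singly, FatM, PT4, RAD1, RAM2 and SWEET1b were lower in Mtphr2 without overlap, as were 10.6% of all genes, and the other markers overlapped. All 12 markers had a lower fitted level in Mtphr2, with log2 fold changes of -2.89 to -1.88, and 0 were called by edgeR's quasi-likelihood test. In whole roots, fewer cells of a type and less RNA per cell cannot be told apart. Of markers for other tissues, 7 of 7 endodermis genes were tested and summed to 109 to 329 CPM in R108 and 142 to 177 CPM in Mtphr2. Only 9 of 625 nodule genes (461 to 583 and 404 to 461 CPM) and 2 of 8 green tissue genes (14.1 to 22.0 and 14.8 to 19.8 CPM) were tested, and 594 of the nodule genes were listed at 0 in every library.

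By level per gene length, the most abundant members in R108 were the nitrate partner proteins. MTR_4g104730 and MTR_4g104700, both closest to NRT3.1, stood at 238 and 197 CPM per kb. They were followed by MTR_7g017630, closest to the vacuolar transporter AVT6A, at 176 CPM per kb, and by MTR_5g012290, closest to NPF6.3, the dual-affinity nitrate transporter of Arabidopsis, at 175 CPM per kb. MTR_2g101920 (closest to LHT1, an amino acid importer of Arabidopsis) and MTR_1g094620 (AVT1C) both reached 105 CPM per kb, and MTR_1g036410 (AMT2 member 5) reached 95.6 CPM per kb.

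Between the genotypes, 0 of 162 tested members passed edgeR's quasi-likelihood test after Benjamini-Hochberg adjustment, against 0.0794% of the 22663 genes tested (0.0309% lower and 0.0485% higher in Mtphr2). The lowest adjusted p among members was 0.123. At an unadjusted edgeR p under 0.05 there were 22 members lower and 22 higher in Mtphr2, together 27.2% of members against 16.4% of all genes (8.41% lower and 8.01% higher). With the replicate number as a block edgeR also called 0 members (0.335% of all genes; lowest adjusted p 0.0510), and limma-voom called 0 (0.137% of all genes). DESeq2 called 17 members, 8 lower and 9 higher, which is 10.5% of members against 5.73% of all genes (2.96% lower and 2.77% higher). That number depended on single libraries: it was 9 without R108 replicate 1, 6 without R108 replicate 2, 24 without R108 replicate 3, 31 without Mtphr2 replicate 1, 12 without Mtphr2 replicate 2 and 5 without Mtphr2 replicate 3. Shares over all genes are not given for these 6 fits, so the counts show only how far the number moved. With the replicate block DESeq2 called 34 members, 21% against 7.44% of all genes, and 15 of the 17 were among them; the exceptions were MTR_1g070470 (adjusted p = 0.120) and MTR_3g088465 (adjusted p = 0.172). Of the 17 genes, 2 passed DESeq2 in all 6 fits that left out a library, the NPF3.1 gene MTR_7g088820 and the AMT1 gene MTR_1g045550. The share of all genes called by DESeq2 that passed in all 6 fits was not counted. That number is therefore not read as a result about transporters.

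The median log2 fold change of the members was 0.02, as it was for all tested genes, with 78 members fitted lower and 84 higher in Mtphr2. The spread was uneven in its tails: 24 members (14.8%) were fitted at least 2-fold lower, against 4.84% of all genes, and 6 (3.70%) at least 2-fold higher, against 3.59%. By class, the median was 0.52 for 6 tested genes described as ammonium transporters (0.35 for the 5 without the bHLH25-like gene), -0.78 for 5 high-affinity nitrate genes, -0.26 for 56 NRT1/PTR genes, -0.28 for 12 oligopeptide transporter (OPT) genes and 0.07 for 83 amino acid transporter genes. In 36 members the 3 libraries of one genotype did not overlap the 3 of the other, 14 lower and 22 higher. That is 22.2% of members, and the share over all genes was also 22.2% (10.6% lower and 11.6% higher).

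**Figure D1:**
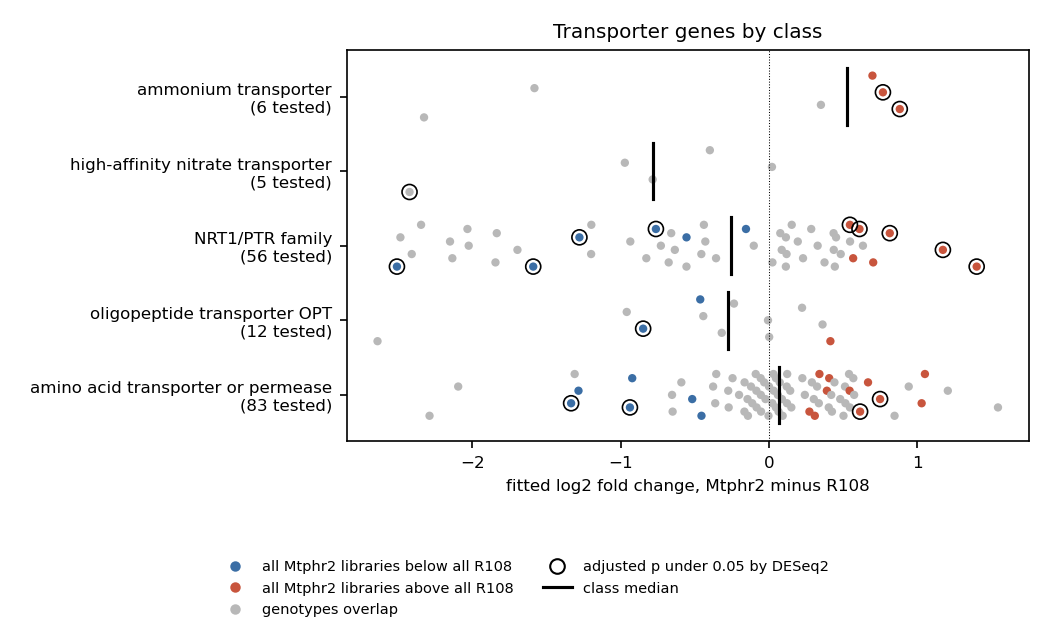
Fitted log2 fold change, Mtphr2 minus R108, of the 162 tested transporter genes by class; each point is a gene, the bar is the class median, colours mark genes whose libraries do not overlap between genotypes, and rings mark the 17 genes called by DESeq2. The lower tail below -1 holds 24 genes, most of them of the NRT1/PTR class, and the upper tail above 1 holds 6.

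Ammonium transporter genes went in both directions. MTR_1g045550, closest to AMT1 member 1, a high-affinity ammonium importer in other plants, stood at 86.1, 86.8 and 67.7 CPM in R108 and at 157, 136 and 117 CPM in Mtphr2. Every Mtphr2 library was above every R108 library, and its log2 fold change was 0.77 (SE 0.15; edgeR adjusted p = 0.150, DESeq2 adjusted p = 0.0016). MTR_7g069640, closest to AMT2, showed 16.4, 15.998 and 13.3 CPM in R108 and 30.9, 24.9 and 18.5 CPM in Mtphr2, also without overlap, with a log2 fold change of 0.70 (SE 0.20; edgeR adjusted p = 0.230). MTR_1g036410, closest to AMT2 member 5, had the opposite direction and a far wider spread, with 255, 124 and 35.7 CPM in R108 and 55.0, 11.5 and 16.3 CPM in Mtphr2. Its genotypes overlapped, since Mtphr2 replicate 1 was above R108 replicate 3, and its log2 fold change of -2.33 (SE 0.86) had an edgeR adjusted p of 0.274. MTR_8g095040, closest to AMT3 member 1, was weakly expressed and overlapped likewise, at 8.41, 4.36 and 2.44 CPM against 2.71, 1.70 and 0.667 CPM (log2 fold change -1.58). MTR_4g017820, closest to AMT2, stood at 10.2, 8.26 and 3.09 CPM against 11.6, 8.98 and 6.81 CPM, and its log2 fold change of 0.35 became -0.03 without R108 replicate 3.

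The sixth tested gene of the class, MTR_2g010450, is described as a symbiotic ammonium transporter, but its closest Swiss-Prot entry is the transcription factor bHLH25. It stood at 4.94, 3.9995 and 4.33 CPM in R108 and 9.59, 6.9995 and 7.90 CPM in Mtphr2, with no overlap and a log2 fold change of 0.88 (SE 0.19; edgeR adjusted p = 0.167, DESeq2 adjusted p = 0.0115). The other 4 genes of the class, closest to AMT1 members 2, 3 and 4, had at most 13 counts in a library, and 2 of them had none.

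**Figure D2:**
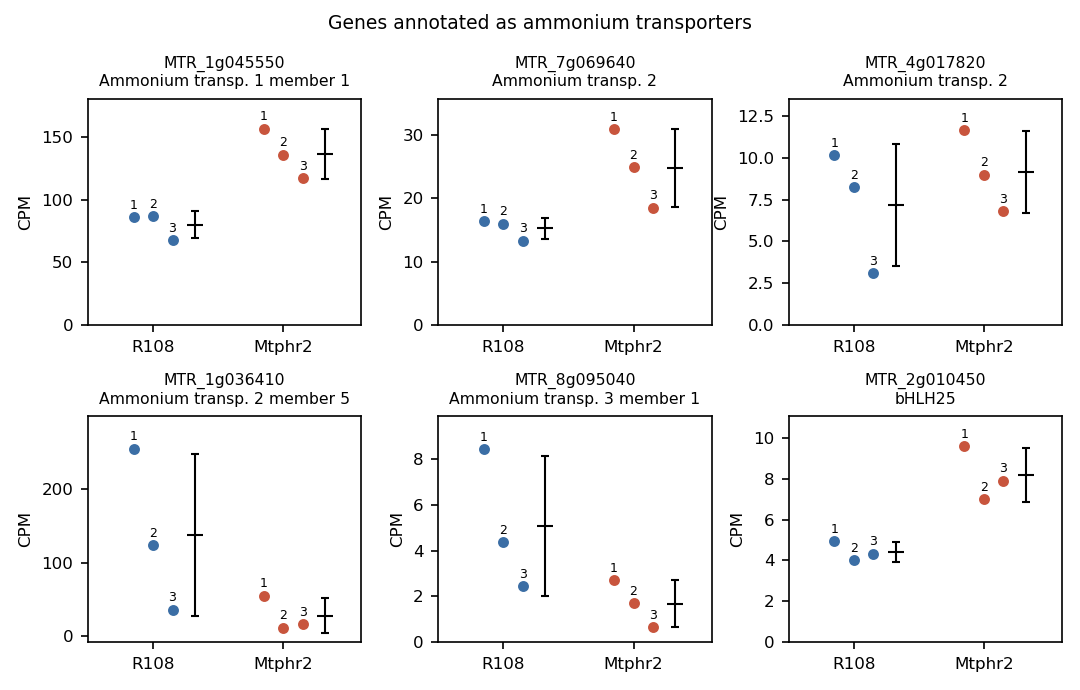
CPM of the 6 tested genes annotated as ammonium transporters; points are libraries with their replicate numbers and bars are the mean ± SD of 3 libraries. The AMT1 member 1 gene, the AMT2 gene MTR_7g069640 and the bHLH25-like gene do not overlap between genotypes, whereas the AMT2 member 5 gene runs from 255 to 35.7 CPM within R108.

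Of the high-affinity nitrate genes, 4 of 5 tested were fitted lower in Mtphr2 and every one overlapped between genotypes. MTR_8g069775, closest to NRT2.5, a nitrate importer induced by nitrogen shortage in Arabidopsis, showed 41.7, 21.4 and 4.82 CPM in R108 and 8.88, 2.35 and 1.48 CPM in Mtphr2. Its log2 fold change was -2.42 (SE 0.94; edgeR adjusted p = 0.284, DESeq2 adjusted p = 0.0489). The NRT2.1 genes MTR_4g057865 and MTR_4g057890 lie close to each other and were highest in R108 replicate 2, at 192 and 34.3 CPM. They were lowest in R108 replicate 3, at 38.2 and 7.26 CPM, below all Mtphr2 libraries, and their log2 fold changes were -0.97 and -0.78. Those values rested on single R108 libraries: they were -0.38 and -0.29 without R108 replicate 2, and -1.40 and -1.21 without R108 replicate 3. For the NRT3.1 genes MTR_4g104730 and MTR_4g104700 the log2 fold changes were -0.40 and 0.02. The NRT2.1 and NRT3.1 genes had estimated counts that were not whole in all 6 libraries, as values have when reads are divided between loci, so the split between copies is uncertain.

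Of 56 tested genes of the NRT1/PTR family, DESeq2 called 9 (16.1%, against 5.73% of all genes), and 15 were fitted at least 2-fold lower (26.8%, against 4.84%). MTR_7g088820 had the lowest edgeR p of all members. It is closest to NPF3.1, which carries nitrite and gibberellin in Arabidopsis, and stood at 76.5, 60.5 and 45.2 CPM in R108 and at 181, 125 and 176 CPM in Mtphr2. The log2 fold change was 1.40 (SE 0.23; edgeR adjusted p = 0.123, DESeq2 adjusted p = 9.12e-06). MTR_4g019580 (NPF5.6) followed with 23.0, 19.4 and 11.5 CPM against 27.2, 46.0 and 48.4 CPM (log2 fold change 1.17; DESeq2 adjusted p = 0.0196). MTR_4g114340 is closest to NPF6.2, a nitrate transporter of Arabidopsis petioles, and had a log2 fold change of 0.82 (DESeq2 adjusted p = 0.0420). MTR_2g101560 (NPF1.2) and MTR_5g038060 (NPF2.13), whose closest Arabidopsis proteins move nitrate in the phloem, had log2 fold changes of 0.61 and 0.55. None of these 5 genes overlapped between genotypes.

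Lower in Mtphr2 without overlap were both tested NPF7.3 genes that DESeq2 called. NPF7.3 loads nitrate into the xylem in Arabidopsis. MTR_5g014150 stood at 95.1, 87.5 and 78.5 CPM in R108 and 52.005, 38.6 and 63.4 CPM in Mtphr2, with a log2 fold change of -0.76 (SE 0.19; edgeR adjusted p = 0.198, DESeq2 adjusted p = 0.0132). MTR_7g010820 stood at 8.14, 18.05 and 14.7 CPM against 7.23, 4.60 and 1.76 CPM (log2 fold change -1.59; DESeq2 adjusted p = 0.0468). MTR_8g103233, closest to NPF1.1, had 22.5, 8.77 and 6.12 CPM in R108 and 4.57, 0.921 and 1.10 CPM in Mtphr2, with a log2 fold change of -2.51 (SE 0.78; DESeq2 adjusted p = 0.0166). By subfamily the NPF5 genes were the largest tested group, with 12 of 18 fitted lower and a median log2 fold change of -0.62. NPF1 had 4 of 11 fitted lower with a median of 0.12, and NPF4 had 5 of 10 with a median of -0.27.

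Amino acid transporter genes were fitted lower in 34 and higher in 49 of 83 cases. MTR_1g094620, closest to the vacuolar transporter AVT1C, stood at 260, 218 and 216 CPM in R108 and 420, 295 and 348 CPM in Mtphr2, with no overlap. Its log2 fold change was 0.62 (SE 0.16; edgeR adjusted p = 0.199, DESeq2 adjusted p = 0.0206). Among AVT genes as a family, 7 of 25 (28%) were higher without overlap, against 11.6% of all genes, and 1 (4%) was lower, against 10.6%; this family was picked after its values were seen. MTR_7g017630 (AVT6A), the most abundant amino acid transporter per length, stood at 589, 573 and 375 CPM against 674, 636 and 637 CPM (log2 fold change 0.34). MTR_3g088465 (AAP3) and MTR_3g110420 (AAP8), permeases that import amino acids, were higher in every Mtphr2 library, with log2 fold changes of 0.75 (DESeq2 adjusted p = 0.0437) and 0.67 (DESeq2 adjusted p = 0.123). Of 4 tested genes closest to GABA transporters, 2 were fitted lower and 2 higher in Mtphr2. The 2 lower ones did not overlap between genotypes and were called by DESeq2. MTR_8g099320 stood at 47.3, 29.4 and 26.3 CPM against 23.0, 17.3 and 13.5 CPM (log2 fold change -0.94; DESeq2 adjusted p = 0.0439). MTR_1g070470 had only 2.61, 2.102 and 2.33 CPM against 1.05, 1.01 and 0.714 CPM (log2 fold change -1.33; DESeq2 adjusted p = 0.0174). MTR_3g061390, closest to AAP7, was lower without overlap at 9.93, 7.79 and 4.55 CPM against 4.42, 4.01 and 3.33 CPM, and DESeq2 did not call it (adjusted p = 0.104).

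The OPT class holds oligopeptide transporters and YSL proteins, which carry metals bound to nicotianamine. MTR_1g077840 (YSL1) stood at 13.3, 23.6 and 17.98 CPM in R108 and 8.28, 12.4 and 9.76 CPM in Mtphr2, without overlap, and had a log2 fold change of -0.85 (SE 0.25; edgeR adjusted p = 0.232, DESeq2 adjusted p = 0.04997). The most abundant OPT genes, MTR_6g077870 (YSL8) and MTR_7g028250 (YSL6), had log2 fold changes of -0.44 and -0.32 and overlapped. Among all members the lowest fitted value, -2.64 (SE 1.15), was that of MTR_3g111350 (OPT2), with 22.5, 6.67 and 2.55 CPM against 4.12, 0.230 and 0.762 CPM.

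Many of the genes with large negative values followed the arbuscule markers from library to library. A gene was said to have the library profile of the markers when R108 replicate 1 was at least 2 times R108 replicate 3 and Mtphr2 replicate 1 was at least 2 times the mean of Mtphr2 replicates 2 and 3. This definition was made after the values were seen and uses only differences inside a genotype. It took in 21 of 162 members (13%), against 3.43% of all genes, and 11 of the 12 markers. With a ratio of 1.5 it took in 25 members (15.4%, against 5.99% of all genes), and with a ratio of 3 it took in 14 (8.64%, against 1.86%). Of the 21 members, 18 were fitted lower in Mtphr2, with a median log2 fold change over the 21 of -2.09, and 18 of the 24 members fitted at least 2-fold lower were among them. Over the whole table, 528 of the 1098 genes fitted at least 2-fold lower had the profile. Of all 777 genes with this profile 77.3% were fitted lower, with a median of -1.84, so a low value goes with the profile across the whole table. Of the 21, 1 (MTR_8g103233) did not overlap between genotypes. Called by DESeq2 with the replicate block were 16 of the 21, all lower, against 59.7% of all genes with the profile. The profile asks for a high replicate 1 in both genotypes, and the block takes up that difference. The choice of these genes therefore made calls with the block likelier. Without the block, DESeq2 called only MTR_8g103233 and MTR_8g069775 among the 21.

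By role, the 18 lower genes with the profile included 12 NRT1/PTR genes, the NRT2.5 gene, the AMT2 member 5 and AMT3 member 1 genes, OPT2, LHT1 and CAT1. Those not yet described were picked for this profile after their values were seen. MTR_8g087780 is closest to NPF4.5, whose rice counterpart is a nitrate transporter of arbuscule-containing cells, and stood at 187, 108.09 and 23.1 CPM in R108 and 59.1, 16.6 and 13.05 CPM in Mtphr2. MTR_8g087810, also closest to NPF4.5, had 13.9, 6.51 and 1.03 CPM against 3.87, 1.15 and 0.99995 CPM. Both were highest in R108 replicate 1 and had log2 fold changes of -1.84 (SE 0.87) and -1.83 (SE 0.94); their estimated counts were not whole in any library, so the split of reads between them is uncertain. MTR_2g017750, closest to NPF4.6, which imports abscisic acid in Arabidopsis, stood at 128, 68.9 and 28.8 CPM against 31.3, 3.22 and 5.90 CPM (log2 fold change -2.48). MTR_4g123537, also closest to NPF4.6, had a log2 fold change of -1.70. A further 5 of the 18 genes were closest to NPF5.2 or NPF5.3, relatives of peptide transporters. Of these, MTR_7g098040 stood at 78.3, 44.9 and 15.4 CPM against 23.4, 4.70 and 3.19 CPM (log2 fold change -2.15), MTR_7g098150 had -2.35, MTR_7g098090 had -2.13 and MTR_7g098230 had -1.20. In these genes, too, estimated counts were not whole in 4 or more libraries; among all tested members 58 (35.8%) had such a value in at least 1 library.

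MTR_2g101920 (LHT1) stood at 277, 123 and 41.5 CPM in R108 and 62.5, 12.8 and 15.1 CPM in Mtphr2, a log2 fold change of -2.29 (SE 0.88; edgeR adjusted p = 0.281). MTR_1g030660 (CAT1), an importer of basic amino acids in Arabidopsis, stood at 114, 51.0 and 18.6 CPM against 27.0, 6.03 and 10.1 CPM, a log2 fold change of -2.09 (SE 0.79; edgeR adjusted p = 0.279). In both genes Mtphr2 replicate 1 exceeded R108 replicate 3. MTR_3g112460, closest to the peptide transporter NPF8.3, had 68.4, 29.2 and 6.18 CPM against 17.3, 3.96 and 4.33 CPM (log2 fold change -2.02). The 3 members with the profile and no lower fitted value were all amino acid transporters. They were MTR_5g023260 and MTR_3g115090, both closest to LHT-like 8, and MTR_3g096760, closest to the amino acid exporter and importer BAT1. MTR_5g023260 stood at 78.8, 49.3 and 21.9 CPM in R108 and 119, 57.9 and 46.1 CPM in Mtphr2, so replicate 1 was highest inside each genotype, as for the markers, and Mtphr2 replicate 1 was the highest library of all.

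**Figure D3:**
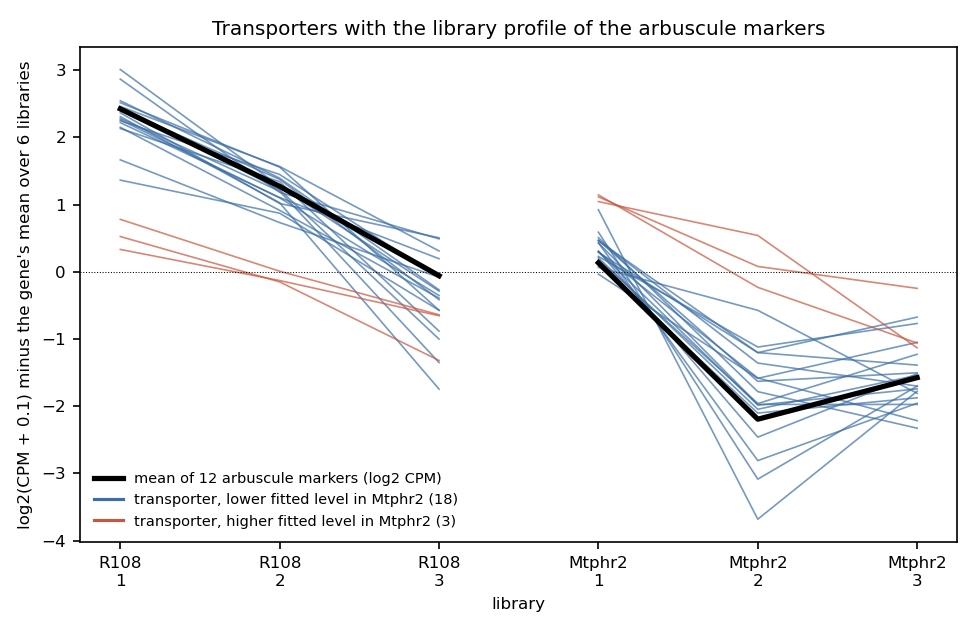
Level of the 21 transporters with the library profile of the arbuscule markers, as log2(CPM + 0.1) minus each gene's mean over 6 libraries, and of the mean of the 12 markers (black). The 18 genes with a lower fitted level (blue) run in the direction of the markers inside each genotype. The 3 others (red) are highest in replicate 1 of each genotype and higher in Mtphr2 replicate 1 than in R108 replicate 1. All 21 genes were chosen for such differences inside a genotype, so this likeness was built in.

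The 21 genes were chosen for following the markers in these same libraries. A marker covariate was therefore bound to shift their values, and no conclusion is drawn from that shift. With the mean marker level added to the edgeR fit as a covariate, the 21 genes had log2 fold changes of -0.52 to 2.16, with a median of 0.33. That fit rests on 6 libraries and a marker level that itself differs between the genotypes, 6.07 ± 1.24 in R108 and 3.65 ± 1.21 in Mtphr2, so genotype and marker level are only partly told apart. In that fit MTR_1g036410 (AMT2 member 5) changed from -2.33 to 0.32 and MTR_8g069775 (NRT2.5) from -2.42 to 0.33. The NPF3.1 gene MTR_7g088820 was the 1 member called by edgeR with the covariate (0.154% of all genes), at a log2 fold change of 2.02 and an adjusted p of 0.0492. MTR_1g045550 (AMT1 member 1) had 1.09 there (SE 0.18; edgeR adjusted p = 0.106). At an unadjusted edgeR p under 0.05 with the covariate there were 24 members, 20 higher and 4 lower, which is 14.8% against 11.6% of all genes. Shares by direction over all genes are not given for that fit, so no result about members is read from the 20 and 4.

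**Figure D4:**
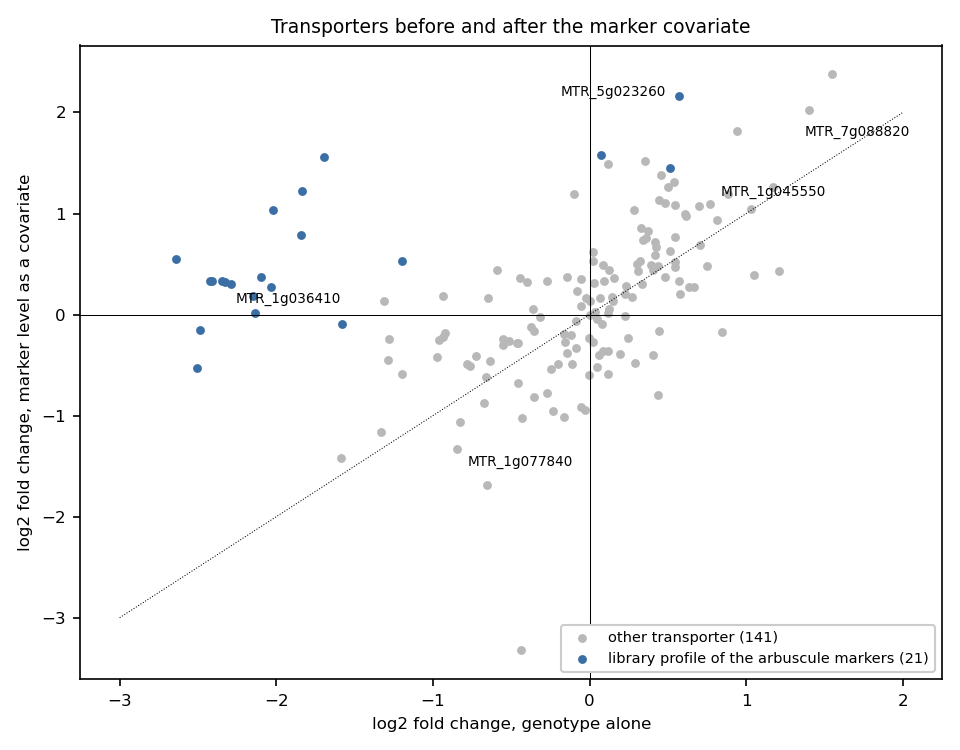
Log2 fold change, Mtphr2 minus R108, of the 162 tested transporters from genotype alone (horizontal) and with the mean arbuscule marker level as a covariate (vertical); blue points are the 21 genes with the markers' library profile and the dotted line is equality. The blue points on the left lie at -0.52 or above on the vertical axis, and MTR_7g088820 lies at 1.40 and 2.02. The blue genes were chosen for following the same markers, so their shift was partly built in.

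Several related members that lie close to each other had different values. In the gene order of RefSeq's assembly MtrunA17r5.0, which is not the version 4.0 used for the counts, 189 of the 261 members could be matched, and 88 of them lay in 33 groups with at most 2 genes between neighbours. Of 17 groups with at least 2 tested members, 6 held members of opposite sign at least 2-fold apart. Neighbouring genes of other kinds were not counted, so no share over all genes stands beside this number. Some members of these groups were weakly expressed. In the NPF3.1 group, MTR_7g088790 stood at 38.05, 21.2 and 16.4 CPM in R108 and 13.1, 7.32 and 10.9 CPM in Mtphr2, a log2 fold change of -1.28 (SE 0.36; edgeR adjusted p = 0.221, DESeq2 adjusted p = 0.0206). Its neighbour MTR_7g088820 had 1.40, as above, and MTR_7g088825 had 0.38 (SE 0.38) with overlapping libraries. The first 2 did not overlap between genotypes, in opposite directions, and all their estimated counts were whole.

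Of the NPF6.3 pair, MTR_5g012290 stood at 499, 404 and 243 CPM in R108 and 464, 503 and 472 CPM in Mtphr2, a log2 fold change of 0.33 (SE 0.25). Its neighbour MTR_5g012270 had 16.6, 6.97 and 2.76 CPM against 3.56, 1.15 and 1.71 CPM, a log2 fold change of -2.03 (SE 0.72), with the markers' library profile. Among NPF5.2 genes, MTR_7g098160 had 85.9, 38.6 and 12.1 CPM against 18.2, 2.58 and 5.05 CPM (log2 fold change -2.41), and MTR_7g098200 had 95.1, 65.2 and 37.8 CPM against 97.4, 73.9 and 100.04 CPM (log2 fold change 0.45). Estimated counts of this NPF5.2 pair were not whole in any library, so reads may have been divided between the copies. Of the LHT-like 8 pair, MTR_5g023240 had 3.26, 2.31 and 1.35 CPM against 0.953, 0.783 and 1.10 CPM (log2 fold change -1.28), and MTR_5g023260 had a log2 fold change of 0.57. The difference between neighbours was not tested in any of these groups.

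**Figure D5:**
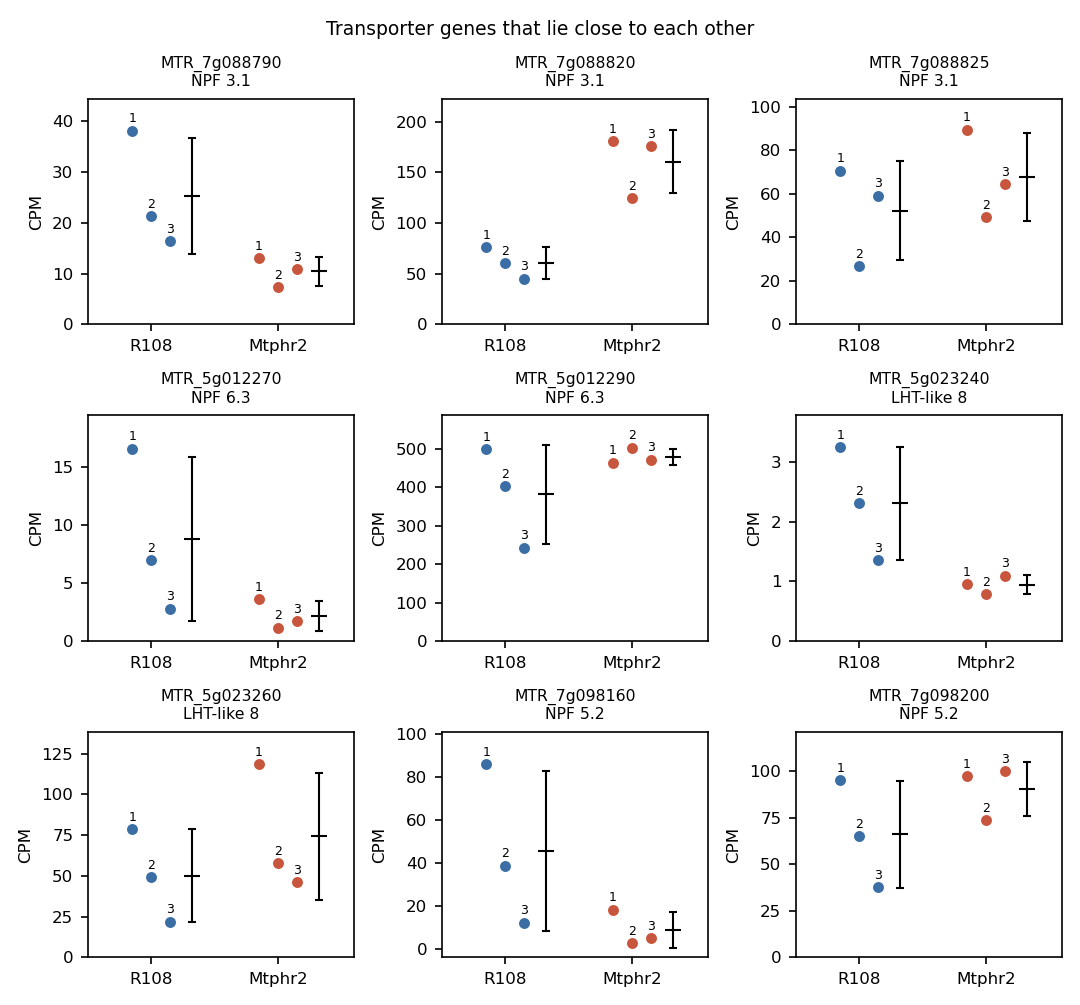
CPM of 9 transporter genes from 4 groups of close neighbours; points are libraries with their replicate numbers and bars are the mean ± SD of 3 libraries. In each group at least 1 gene is lower and 1 higher in mean in Mtphr2, as with MTR_7g088790 and MTR_7g088820.

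Genes that use the transported nitrogen were mostly near the median of all genes. Of ammonium assimilation genes (glutamine synthetase, glutamate synthase and glutamate dehydrogenase) 14 of 23 were tested, 8 lower and 6 higher fitted, with a median log2 fold change of -0.02. Nitrate and nitrite reduction had 3 of 4 genes tested and a median of 0.00, the nitrate regulator list 6 of 12 and -0.10, and urea and ureide transport 2 of 3 and 0.01. The nitrate regulator list was taken by the RWP-RK and NIN-like words. It also holds genes closest to RKD proteins, among them the tested MTR_5g024070 (RKD5). Asparagine turnover had 10 of 15 tested and a median of -0.11. Of the 35 tested genes of these 5 lists edgeR called 0, with 3 at an unadjusted p under 0.05 (8.57%, against 16.4% of all genes), limma-voom called 0, and DESeq2 called 2 (5.71%, against 5.73%). Asparagine synthetase MTR_3g464580, which makes a main nitrogen carrier of legume roots, stood at 1407, 812 and 466 CPM in R108 and 505, 287 and 283 CPM in Mtphr2 (log2 fold change -1.32; DESeq2 adjusted p = 0.0299). Its Mtphr2 replicate 1 lay above R108 replicate 3, and its value with the marker covariate was 0.01. MTR_1g100970, closest to the nitrate regulator NLP7 of Arabidopsis, stood at 123, 120 and 107 CPM against 163, 151 and 146 CPM, without overlap (log2 fold change 0.39; DESeq2 adjusted p = 0.0208).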

How the data were processed

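Total RNA of mycorrhizal roots (TRIzol) was sequenced on an Illumina NovaSeq instrument, and reads were placed on genome version 4.0 with HISAT2 and StringTie, per the labels' protocols. DESeq2 is also listed in the submitters' processing notes. For tool versions and the counting program: not given in the sources used here. Values are estimated counts per locus, not normalized, as deposited by the authors, 81.3% to 82.5% of positive values being whole to 2 decimals. Before modelling, they were rounded to integers.

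Genes were filtered with edgeR's filterByExpr (minimum count 10, minimum total 15), scaled by TMM (factors 0.955 to 1.02), and tested with glmQLFit and glmQLFTest of edgeR, the p-values being Benjamini-Hochberg adjusted over all 22663 genes with a threshold of 0.05. R 4.3.3, edgeR 4.0.16, limma 3.58.1, DESeq2 1.42.0, data.table (1.17.8), pandas 2.3.3 and matplotlib 3.10.9 were used. CPM uses TMM-scaled library sizes. The tests were tested on simulated data, where a larger share of calls was false with DESeq2 than with edgeR. There edgeR missed most 2-fold changes but found most of the larger ones. In the simulation few genes were changed and libraries varied independently, without the marker differences seen here. It therefore does not give the share of false calls in these data. The members, classes and lists were chosen with earlier results of these data known. Named were members called by edgeR, by edgeR with the block or by DESeq2, up to 8 highest and 8 lowest without overlap at 5 CPM or more, the 2 most abundant per class, and all tested ammonium and high-affinity nitrate genes; others are marked as picked later or stand beside neighbours. Word lists for related pathways also hold a few other proteins, such as peptide-N-glycanases in the asparagine list and RKD proteins in the nitrate regulator list.

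Replicate numbers come from the titles. With genotype means removed, same-number libraries correlated at 0.377, 0.151 and 0.168 across genes, each over 0.1. R108 replicate 3, however, correlated more with Mtphr2 replicate 2 (0.187) than with its own number. The number was used as a block in alternative fits only. The main edgeR, DESeq2 and limma-voom fits used genotype alone, so their p-values are not paired. Libraries of a genotype differed by chi-squares per degree of freedom of 24.9 to 51.5, so none was a duplicate. Alternatives were other scalings, filters and tools, the block, a marker covariate and leaving out each library. A genome or sequences were not used here, so no sequences are given.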

Additional observations from a re-analysis of the deposited data

How the results depend on the processing

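The 0 members called by edgeR stayed 0 under every alternative except DESeq2 (17) and the marker covariate (1). The members' median log2 fold change of 0.02 was 0.18 with the covariate and -0.03 to 0.04 with a library left out. The 18 genes called over the whole table became 34 with no low-count filter, 1298 with DESeq2, 31 with limma-voom, 76 with the replicate block, 35 with the covariate and 7 to 44 with a library left out. Chosen after seeing the data, DESeq2 called 9 members without R108 replicate 1, 6 without R108 replicate 2, 31 without Mtphr2 replicate 1, 5 without Mtphr2 replicate 3 and 34 with the replicate block, against 17 with all libraries. Apart from these counts, the replicate block changed no call of a named member in the edgeR fit. For DESeq2 with a library left out, shares over all genes are not given.

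Of the 32 named members, 17 were named because DESeq2 called them, and others because their libraries did not overlap between genotypes. The counts that follow were thus partly set by that choice and do not measure stability. Of 480 values of named members under alternatives, 454 kept direction and side of the threshold, 18 passed it (17 with DESeq2 and 1 with the covariate) and 8 turned direction. With the covariate these were MTR_1g036410 (0.32), MTR_4g104730 (0.33), MTR_8g069775 (0.33) and MTR_6g077870 (0.37). MTR_4g017820 (-0.027; 0.69 without R108 replicate 1) and MTR_4g104700 (-0.24; 0.17 without R108 replicate 2) turned without R108 replicate 3, and MTR_4g104700 also without Mtphr2 replicate 1 (-0.0094) or 2 (-0.019). The cause was not tested. Promoter motifs were not run. With 3 libraries a genotype, whose marker levels differ widely, members with large spread had standard errors near 1 on the log2 scale.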

Other observations

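Transporters that the annotation words miss, but whose closest Swiss-Prot entry is of these families, comprised 26 annotated genes, 14 of them tested, and 4 assembled loci outside the annotation, all 4 tested. Of these 18, edgeR called 0, with 5 at an unadjusted p under 0.05 (27.8%, against 16.4% of all genes), limma-voom called 0, and DESeq2 called 3 (16.7%, against 5.73%). All genes named here were picked after their values were seen. MTR_2g093180, described as a nitrate excretion transporter and closest to NPF2.6, stood at 7.71, 6.82 and 9.48 CPM in R108 and 14.5, 13.8 and 18.7 CPM in Mtphr2, without overlap. MTR_4g033330, closest to NPF5.10, stood at 10.9, 8.82 and 8.02 CPM against 20.98, 13.3 and 16.6 CPM. MTR_7g088220, closest to the vacuolar transporter YPQ1, went the other way, at 8.47, 4.205 and 4.93 CPM against 3.26, 2.12 and 1.57 CPM. Estimated counts of MTR_2g093180, MTR_4g033330 and MTR_7g088220 were not whole in 5, 6 and 6 libraries. Reads may thus have been divided between loci, and the levels of these genes are uncertain. An assembled locus closest to AVT6D had a log2 fold change of 1.73, with less than 5 CPM in every library. MTR_3g462710, closest to the peptide transporter NPF8.1, stood at 133, 59.6 and 48.4 CPM in R108 and 48.8, 36.7 and 25.2 CPM in Mtphr2, and its genotypes overlapped, Mtphr2 replicate 1 being just above R108 replicate 3.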
